A study of Mus musculus with 6 samples.

Results

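Hepatocytes make, store and release glucose, and the genes of 7 enzymes and 1 regulatory protein of this work were followed through orthotopic mouse liver tumors. The genes were Pck1, G6pc, Fbp1, Gckr, Gys2, Pklr, Khk and Pygl, picked out in the tables by gene symbol. They are 8 of 34685 genes in the deposited normalized counts, which carry the symbols. All 8 passed the filter on low counts, which kept 15374 genes. RNA sequencing had been done on 6 tumors, 3 from untreated mice and 3 from mice treated with GOx-DOX-LGP, a lipid nanogel that carries glucose oxidase (GOx), an enzyme that consumes glucose, together with doxorubicin (DOX), a chemotherapy drug. The comparison asks how the tumors of treated mice differ in RNA from those of untreated mice.

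Both groups were male C3H mice (C3H/HeNCrNarl in the study's methods), 6 to 8 weeks old, that had received 1000000 HCA-1 cells, a single mouse hepatocellular carcinoma line, under the capsule of the liver. The control tumors, with library numbers 5, 6 and 7, came from untreated mice, and the labels name no empty nanogel or single-agent group. The GOx-DOX-LGP tumors, with library numbers 1, 2 and 5, came from mice given the loaded nanoparticles intravenously on days 18, 19 and 20. The labels place the transcriptome analysis after 3 h of circulation on day 17, a day before the first listed dose. For quantitative PCR, the study's methods give those same dosing days and a harvest on the day after the last dose, and which harvest applies to the sequenced tumors is not stated. No label mentions pooling of animals, and none says how tumor was separated from host liver. Each library is taken as 1 tumor, so p-values measure the spread between these 6 samples.

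In the fasting liver, gluconeogenesis builds glucose from lactate, glycerol and amino acids, and phosphoenolpyruvate carboxykinase (Pck1), fructose-1,6-bisphosphatase (Fbp1) and the catalytic subunit of glucose-6-phosphatase (G6pc) carry out its committed steps. In the fed liver, a nuclear regulatory protein (Gckr) sets how readily glucose is trapped, glycogen synthase (Gys2) stores it, pyruvate kinase (Pklr) ends glycolysis, and ketohexokinase (Khk) starts the breakdown of fructose. Glycogen phosphorylase (Pygl) opens the glycogen store again. Most of these proteins have a counterpart encoded by another gene and used outside the liver, and hepatocellular carcinoma is known for exchanging liver forms for those counterparts.

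Promoter sequence is shown for a pair of gluconeogenic genes, whose levels spread widely over the libraries, and for Khk and Pygl, whose levels spread least. The sequences are the 250 bases before the RefSeq start on GRCm38.p6, written 5′ to 3′ on the strand of the gene. Capitals mark matches to short motifs searched on both strands.
Pck1, chr2:173152823-173153072, plus strand: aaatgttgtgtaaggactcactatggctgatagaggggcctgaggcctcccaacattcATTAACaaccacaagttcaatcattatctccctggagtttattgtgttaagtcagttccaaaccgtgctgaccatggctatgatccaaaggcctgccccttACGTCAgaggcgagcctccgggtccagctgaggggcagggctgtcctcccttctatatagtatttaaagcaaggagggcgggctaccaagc
G6pc, chr11:101367466-101367715, plus strand: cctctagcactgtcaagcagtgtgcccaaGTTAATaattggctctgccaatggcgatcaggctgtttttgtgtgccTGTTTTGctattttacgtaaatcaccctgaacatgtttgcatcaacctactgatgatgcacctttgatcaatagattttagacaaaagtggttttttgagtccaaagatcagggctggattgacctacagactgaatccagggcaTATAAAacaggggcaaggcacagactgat
Khk, chr5:30921309-30921558, plus strand: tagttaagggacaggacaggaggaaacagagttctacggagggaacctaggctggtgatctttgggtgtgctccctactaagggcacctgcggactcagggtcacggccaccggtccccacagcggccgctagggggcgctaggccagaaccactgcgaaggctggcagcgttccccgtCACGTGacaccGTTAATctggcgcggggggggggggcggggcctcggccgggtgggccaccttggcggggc
Pygl, chr12:70227684-70227933, minus strand: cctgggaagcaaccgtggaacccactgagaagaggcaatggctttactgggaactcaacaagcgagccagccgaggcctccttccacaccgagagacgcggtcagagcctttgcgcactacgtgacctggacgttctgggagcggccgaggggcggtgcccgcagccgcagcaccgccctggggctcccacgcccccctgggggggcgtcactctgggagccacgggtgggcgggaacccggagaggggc
The search covered 300-base windows that add 50 bases after the start, with 8 windows for 7 of the 8 genes and 32851 windows in all. The Pck1 window held the cAMP response core TGACGT, present in 7.51% of all windows, and the HNF1 half-site GTTAAT, present in 7.10%. Both matches are on the opposite strand, so the printed strand shows them as ACGTCA and ATTAAC. The G6pc window held the TATA box TATAAA (13.6% of windows), the insulin response core CAAAACA (6.28%, read here as TGTTTTG) and the HNF1 half-site. The Khk window held the E-box CACGTG (7.15%) and the HNF1 half-site. Of the windows not shown, that of Gckr held the insulin response core and the HNF1 half-site, and 1 of the 2 windows of Pklr held the TATA box. The windows of Fbp1 and Pygl and the other window of Pklr held none of the 7 motifs, and neither the forkhead core TGTTTAC (3.65%) nor the HNF4 core CAAAGTCCA (0.475%) was in any window of these genes. The G and C content of the windows was 65.7% for Khk and 67.0% for Pygl, against 46.7% for G6pc and 52.0% for Pck1. It was 57.3% for Fbp1, 56.3% for Gckr, and 50.7% and 55.7% for the 2 windows of Pklr. Its relation to the spread of levels was not tested. These matches describe letters in a window and were not tested for binding.

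The libraries did not divide along the treatment. Total counts lay between 15529940 and 18401178, so 3 counts, a rough upper bound for a gene with a count of 0, stand for 0.132 to 0.323 CPM (counts per 1000000 counts, after TMM scaling). Alb, the gene of serum albumin and a defining hepatocyte marker, took 5.58% and 7.28% of all counts in controls 6 and 7, but 0.0437% in control 5 and 0.0888% to 0.234% in the GOx-DOX-LGP tumors. Over all genes kept, the log2 CPM of control 5 had a Pearson correlation of 0.966 to 0.975 with each GOx-DOX-LGP library, and of 0.730 and 0.659 with controls 6 and 7. A list of 12 genes for secreted hepatocyte proteins had a mean of 4.70 log2 CPM in control 5, 12.2 and 12.7 in controls 6 and 7, and 7.19, 5.87 and 6.44 in treated tumors 1, 2 and 5, with no gene at 0 in any library. In bulk tumor RNA, fewer hepatocytes and less of these RNAs per hepatocyte cannot be told apart. Results are therefore given per library, and with and without control 5.

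The gluconeogenic genes were abundant in 2 control tumors and scarce in the other 4 tumors. Pck1 stood at 3.03, 1228 and 2327 CPM in control tumors 5, 6 and 7, and at 15.5, 6.52 and 11.3 CPM in treated tumors 1, 2 and 5. All 3 treated tumors lay above control 5 and far below controls 6 and 7, so the groups overlapped. The log2 fold change of GOx-DOX-LGP over control was -6.74 with a standard error of 2.04 (adjusted p = 0.247, edgeR's quasi-likelihood test with Benjamini-Hochberg adjustment over all genes kept). Fbp1, the enzyme that removes a phosphate from fructose-1,6-bisphosphate, followed the same order, with 2.37, 695 and 1149 CPM in control tumors 5, 6 and 7 and 14.6, 5.05 and 8.58 CPM in treated tumors 1, 2 and 5. Its log2 fold change was -6.03 (SE 1.90, edgeR adjusted p = 0.247).

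G6pc, which encodes the enzyme that releases free glucose, had the widest range. Its level was 0.307, 174 and 426 CPM in the control tumors, in the order 5, 6 and 7, and 6.72, 1.22 and 4.63 CPM in the treated tumors, in the order 1, 2 and 5. Only 7 reads were behind the value in control 5, with an exact Poisson 95% interval of 2.81 to 14.4 counts that covers counting error only, against 25 to 136 reads in the treated tumors. The highest treated tumor held 5.49 times the CPM of the lowest, compared with 2.58 times for Alb. The log2 fold change was -5.57 (SE 2.06, edgeR adjusted p = 0.257).

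Gckr, whose protein restrains the trapping of glucose when glucose is low, was read 9 times in control 5. Its level was 0.395, 229 and 293 CPM in control tumors 5, 6 and 7, and 2.92, 1.37 and 2.03 CPM in treated tumors 1, 2 and 5. Again the treated tumors lay between control 5 and the other controls. The log2 fold change was -6.37 (SE 1.97, edgeR adjusted p = 0.247).

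The pair of glycogen enzymes behaved unlike each other. Gys2, which builds glycogen, stood at 1.27, 242 and 365 CPM in control tumors 5, 6 and 7 and at 3.56, 1.42 and 2.13 CPM in treated tumors 1, 2 and 5, with a log2 fold change of -6.41 (SE 1.81, edgeR adjusted p = 0.247). The gene lies at chr6:142422613-142473109 on the minus strand of GRCm38. GOx-DOX-LGP 2 and control 5 were nearly level for it, with 29 reads each. Pygl, which breaks glycogen down and is also the form used by white blood cells, stood at 68.3, 402 and 689 CPM in the control tumors and at 86.9, 88.6 and 88.5 CPM in the treated tumors. The 3 treated tumors lay within a factor of 1.02 of each other, and control 5 lay just below them. The log2 fold change of Pygl, -2.13 (SE 0.77, edgeR adjusted p = 0.252), was the smallest of the 8 genes in size.

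Pklr, the pyruvate kinase of liver and red cells, stood at 0.439, 76.7 and 186 CPM in control tumors 5, 6 and 7, and at 2.32, 0.490 and 1.14 CPM in treated tumors 1, 2 and 5. GOx-DOX-LGP 2 and control 5, with 10 reads each, could not be separated at this depth. The log2 fold change was -6.05 (SE 1.89, edgeR adjusted p = 0.247). Exons of Pklr share 711 bases with Hcn3 on the opposite strand, and the sources used here do not say whether counting used strand. Hcn3 itself had 10 to 83 counts per library, which is not small beside the low counts of Pklr.

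Khk, which phosphorylates fructose and exists as a liver splice form and a widespread one that gene counts do not separate, ran from 6.32 CPM in control 5 to 203 and 378 CPM in controls 6 and 7. The treated tumors held 13.0, 9.16 and 14.4 CPM, in the order 1, 2 and 5. With a log2 fold change of -4.00 (SE 1.28, edgeR adjusted p = 0.247), Khk lay between Pygl and the other 6 genes.

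**Figure D1:**
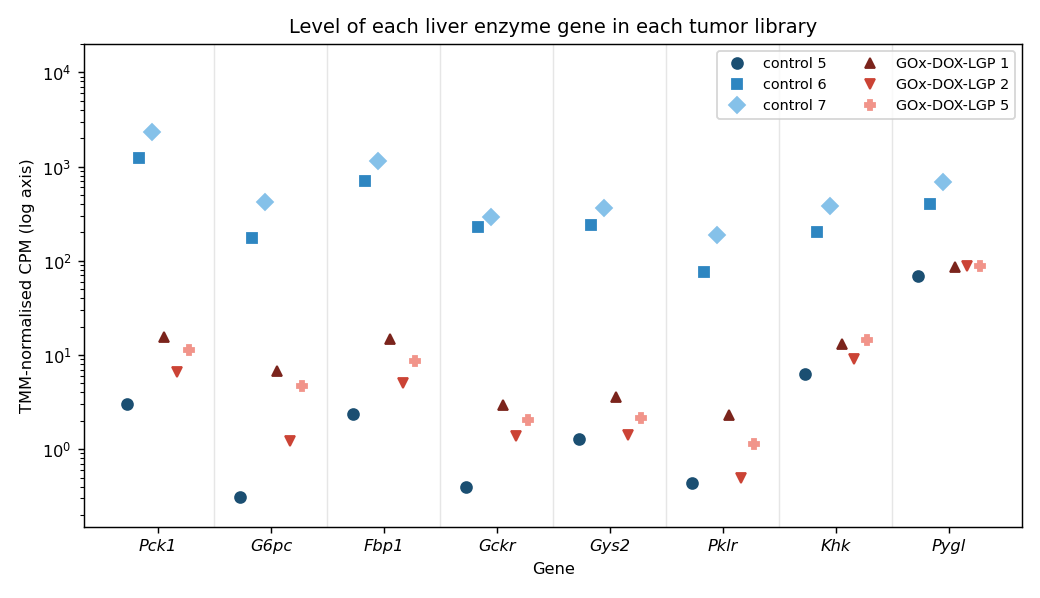
Level of each gene in each tumor library, in TMM-normalised CPM on a log axis, with blue symbols for the 3 control tumors and red symbols for the 3 GOx-DOX-LGP tumors. For every gene, controls 6 and 7 lie above the treated tumors and control 5 lies below them, and Pygl has the narrowest range (68.3 to 689 CPM).

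All 8 genes shared the ends of the order, with control 7 highest, control 6 next and control 5 lowest. In 6 of the 8 genes the treated tumors stood in the order 1, 5 and 2, which is also the order of Alb, and the exceptions were Khk (5, 1, 2) and Pygl (2, 5, 1). The exact two-sided permutation test over 3 against 3 libraries gave p = 0.4 for each gene, where the smallest p it allows is 0.1. No gene had groups that did not overlap, against 17.2% of all genes kept. In edgeR's quasi-likelihood test none of the 8 was called, as was none of all genes kept (0%). At an unadjusted p under 0.05, 8 of 8 were lower in GOx-DOX-LGP tumors, where 14.6% of all genes were. The median log2 fold change was -6.04 over the 8 genes and 0.02 over all genes.

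The calls turned on the test and on control 5. DESeq2 called 7 of the 8 genes lower, with adjusted p from 0.000519 for Gys2 to 0.00601 for Khk, while Pygl missed the threshold (adjusted p = 0.0587, DESeq2). Over all genes with an adjusted p, DESeq2 called 9.85% lower. Without control 5, edgeR called all 8 lower, with log2 fold changes from -7.29 for Pck1 to -2.60 for Pygl, in a fit that called 25.5% of all genes lower. With control 5 as the lone control, which is assumed to vary like the treated libraries, the sign turned for all 8 genes, from 0.38 (SE 0.18) for Pygl to 3.76 (SE 1.15) for G6pc. In that fit 0 of the 8 genes and 0% of all genes were called, 5 of the 8 and 3.18% of all genes were higher at an unadjusted 0.05, and the edgeR adjusted p was 0.885 to 0.889 for these genes.

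Over the 6 libraries, the 8 genes had a Pearson r of 0.978 to 0.9997 with the mean of the hepatocyte list. Fitting that mean as a covariate thus left little room for a difference between groups, and it took away most of it. The median log2 fold change of the 8 genes was then -0.33, and edgeR called 0 of the 8 genes and 0% of all genes. Pck1 (-0.34, SE 0.26), Fbp1 (-0.12, SE 0.22), Gckr (0.05, SE 0.27), Pklr (-0.36, SE 0.49), Khk (-0.34, SE 0.29) and Pygl (-0.33, SE 0.27) lay within 2 standard errors of 0. G6pc was higher by 1.41 (SE 0.54, edgeR adjusted p = 0.622) and passed an unadjusted 0.05, as did 2.52% of all genes in that direction. Gys2 was lower by a log2 fold change of -1.03 (SE 0.21, edgeR adjusted p = 0.37) and also passed an unadjusted 0.05, as did 5% of all genes in that direction.

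**Figure D2:**
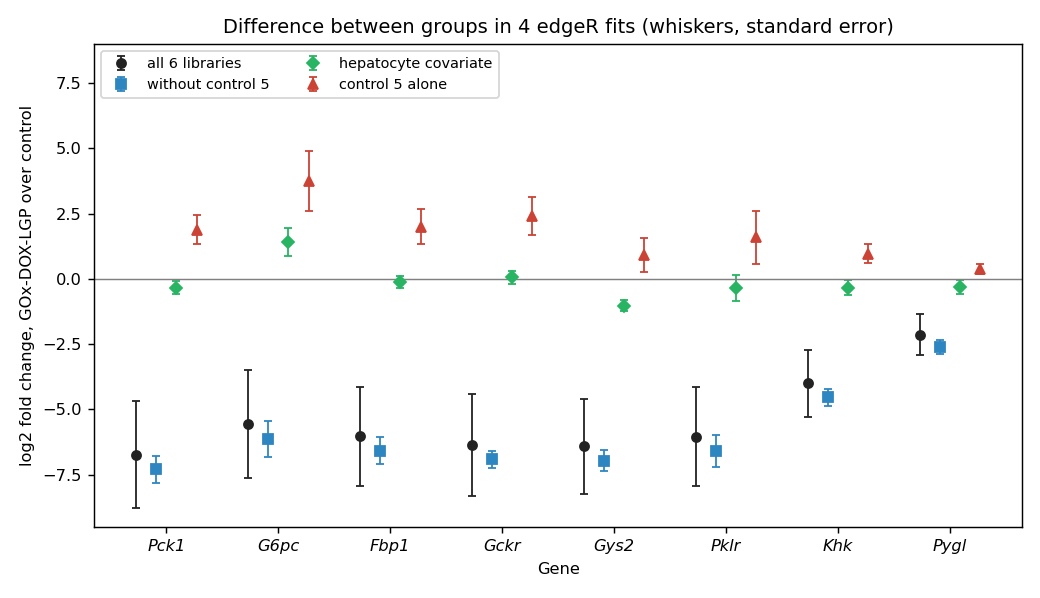
Log2 fold change of GOx-DOX-LGP over control for each gene in 4 edgeR fits, with standard errors as whiskers. With all 6 libraries or without control 5 every value is below 0, with the hepatocyte covariate most lie near 0, and with control 5 as the lone control all lie above 0.

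Taking each gene relative to the hepatocyte list within the same library removes the scaling between libraries, and on this measure Gys2 was the exception. Its log2 CPM minus the mean log2 CPM of the 12 hepatocyte genes was -4.23, -4.27 and -4.18 in control tumors 5, 6 and 7, and -5.31, -5.25 and -5.27 in treated tumors 1, 2 and 5. The mean was -4.23 ± 0.05 (SD, n = 3) in control tumors and -5.28 ± 0.03 (SD, n = 3) in GOx-DOX-LGP tumors. Thus the treated tumors held 2.07 times less Gys2 for the same hepatocyte signal, and control 5 stood with the other controls. The groups did not overlap, which was so for 0.709% of all genes kept on the same measure and for 1 of the 8 genes here. The exact permutation p was 0.1, the smallest that 3 against 3 libraries can give, so this design could not reach 0.05. After Benjamini-Hochberg adjustment over the 8 genes, the exact permutation p of Gys2 was 0.457. With each of the 12 hepatocyte genes alone as the reference the groups were also apart (differences of -1.63 to -0.63). These genes make up the list, so they are not separate checks. Some gaps were narrow, with a lowest control of -3.30 and a highest treated tumor of -3.41 for Serpinc1, and -4.05 and -4.18 for Apoa2. With 1 library left out the difference was -1.07 to -1.03, but leaving out a library cannot make separate groups overlap. Without control 5, 98.6% of all genes kept were apart on this measure. Against other genes of the set the separation was weaker. Relative to Pck1, G6pc, Fbp1, Gckr and Pklr in turn, the differences of Gys2 were -1.25 to -0.12, and the groups were apart for Fbp1 alone. The 29 reads of Gys2 in control 5, like the 29 in GOx-DOX-LGP 2, have an exact Poisson 95% interval of 19.4 to 41.7 counts.

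The remaining genes overlapped between groups on the relative scale. Pck1 was -3.05, -1.93 and -1.51 in control tumors 5, 6 and 7 and -3.23, -3.14 and -2.92 in the treated tumors, so that only control 5 came among the treated values (exact permutation p = 0.2). G6pc was -5.94, -4.75 and -3.96 in the control tumors and -4.42, -5.45 and -4.19 in the treated tumors, without any separation (exact permutation p = 0.7). Fbp1 ranged from -3.39 to -2.53 in control tumors and from -3.50 to -3.31 in treated tumors, and Gckr from -5.67 to -4.35 and from -5.59 to -5.30. Pklr covered -5.93 to -5.15 in control tumors and -6.60 to -5.90 in treated tumors.

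Among the 8 genes, Khk and Pygl differed from the rest on this scale, with groups that also overlapped. Khk was -2.02 in control 5, -4.53 and -4.13 in controls 6 and 7, and -3.48, -2.66 and -2.58 in treated tumors 1, 2 and 5. Pygl was 1.39 in control 5, -3.54 and -3.27 in controls 6 and 7, and -0.75, 0.60 and 0.03 in the treated tumors. Both genes were thus highest, relative to hepatocyte genes, where hepatocyte genes were lowest. Because the list is subtracted, any gene that changes less than the list between libraries rises on this scale as the list falls. Without control 5, 98.6% of all genes kept had groups apart on it. Between controls 7 and 5 the hepatocyte list differed by 7.99 log2 units, Pck1 by 9.53, G6pc by 9.98, Khk by 5.88 and Pygl by 3.33. Between GOx-DOX-LGP 1 and 2 the list differed by 1.32, Khk by 0.50 and Pygl by -0.03.

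**Figure D3:**
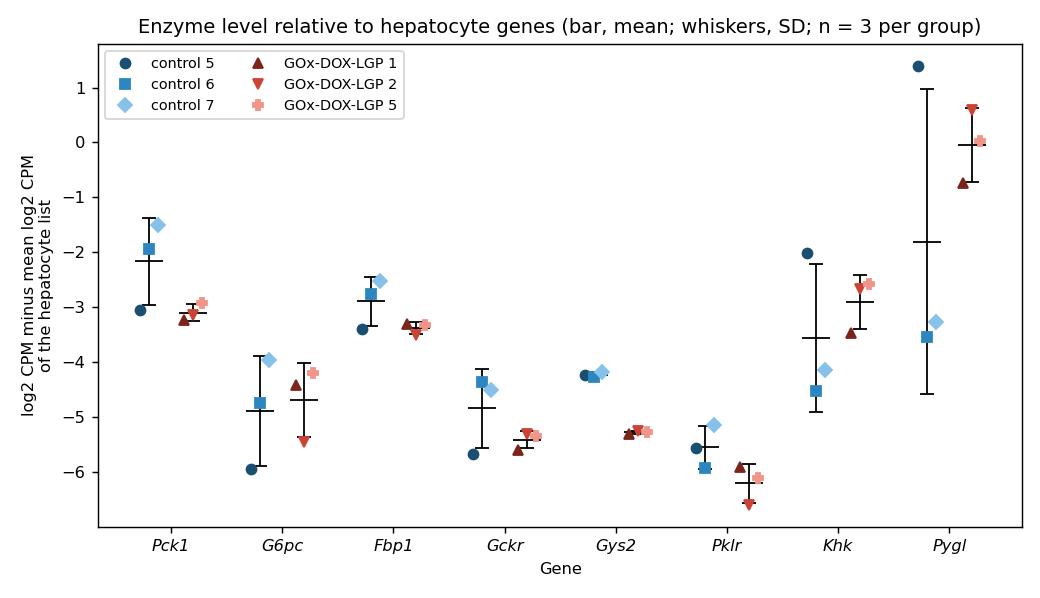
Log2 CPM of each gene minus the mean log2 CPM of 12 hepatocyte genes in the same library, with 3 libraries per group, a bar at the mean and whiskers for the SD. The control and GOx-DOX-LGP values of Gys2 are apart (-4.27 to -4.18 against -5.31 to -5.25), and all other genes overlap.

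Per length of exon, the order of the 8 genes also differed between libraries. In control 6 Fbp1 led with 408 RPKM (CPM per kilobase of exon), followed by Pck1 with 358, Khk with 113, Gys2 with 91.1, G6pc with 72.3, Pygl with 58.3, Gckr with 52.8 and Pklr with 23.7. Control 7 had Pck1 (679 RPKM) and Fbp1 (675 RPKM) nearly level at the top. Pygl led in control 5 with 9.90 RPKM and in the treated tumors with 12.6 to 12.9 RPKM, ahead of Khk or Fbp1. Of all reads of the 8 genes, Pygl took 82.9% in control 5 (95% Wilson interval 81.1% to 84.5%, counting error only), 12.4% and 11.9% in controls 6 and 7, and 59.7%, 77.8% and 66.7% in treated tumors 1, 2 and 5.

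Markers of other cell types that could carry Pygl did not follow the hepatocyte genes. The summed level of 8 macrophage markers was 797 to 1612 CPM in control tumors and 1537 to 4179 CPM in treated tumors. Groups did not overlap for 2 of the 8, where 17.2% of all genes kept had groups apart. For 8 neutrophil markers the sums were 8.50 to 22.9 CPM and 19.8 to 71.2 CPM. Their part in the level of Pygl was not tested. Of other sites that make gluconeogenic enzymes, 6 kidney proximal tubule markers summed to at most 0.753 CPM and 6 adipocyte markers to at most 0.885 CPM in any library.

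**Figure D4:**
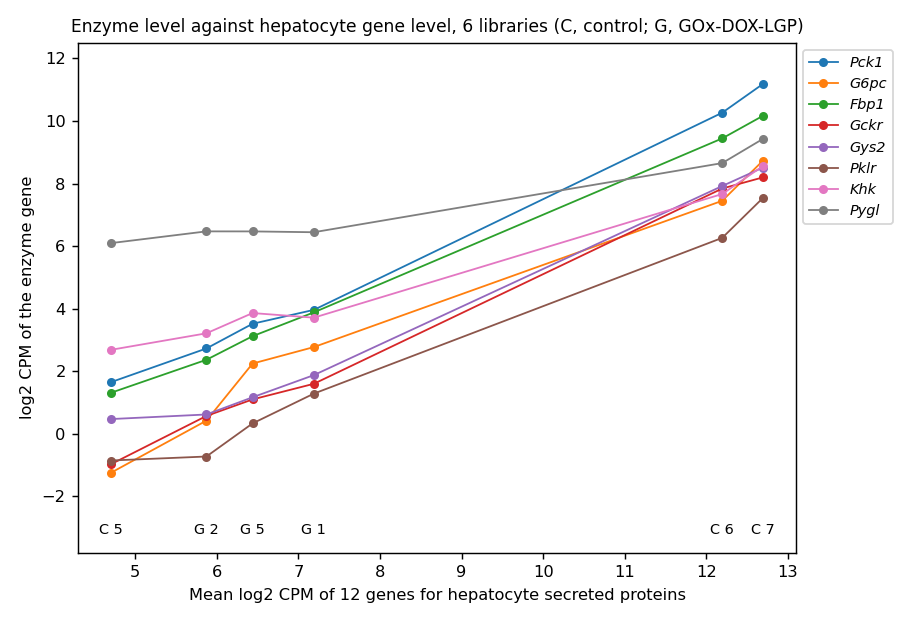
Log2 CPM of each gene against the mean log2 CPM of 12 genes for hepatocyte secreted proteins, with 1 point per library joined by lines, and C and G marking control and GOx-DOX-LGP libraries. The lines of 6 genes climb steeply with the hepatocyte genes, that of Khk climbs less, and that of Pygl is nearly flat among control 5 and the 3 treated libraries.

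Several counterparts used outside the liver had their highest levels in the treated tumors. Of 12 listed, 11 were tested, and the groups did not overlap for 6 that were higher in GOx-DOX-LGP tumors and for 1, Pygm, that was lower, where 17.2% of all genes kept had groups apart. None was called by edgeR, and 3 passed an unadjusted 0.05, as did 17.5% of all genes kept. DESeq2 called 1, Hk3, where it called 10.5% of all genes with an adjusted p. Pkm, the pyruvate kinase of most tissues and tumors, stood at 1070, 241.3 and 70.1 CPM in control tumors 5, 6 and 7 and at 1396, 1475 and 1356 CPM in treated tumors 1, 2 and 5. The treated tumors lay above every control, with a log2 fold change of 1.61 (SE 0.95, edgeR adjusted p = 0.394), but 25.8% of 50-base stretches of Pkm recur in other annotated genes, so its counts are uncertain. Aldoa, the aldolase of muscle and tumors, was likewise higher in all treated tumors, with 677, 251 and 153 CPM against 1027, 1008 and 1020 CPM (edgeR adjusted p = 0.279), and 6.43% of its stretches recur. Gys1, the glycogen synthase of muscle, had 30.1, 11.2 and 7.53 CPM in control tumors and 36.4, 39.2 and 34.3 CPM in treated tumors. Pygb, the phosphorylase of brain, had 46.1, 34.7 and 21.2 CPM against 46.1, 53.7 and 50.3 CPM. Its groups were apart only narrowly, with 46.065 CPM in control 5 and 46.116 CPM in GOx-DOX-LGP 1. So were those of Hk1, another of the 6, with 25.27 CPM in control 5 and 25.598 CPM in GOx-DOX-LGP 5.

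Hk2, a hexokinase prominent in tumors, did not separate the groups. It was at 110 CPM in control 5, at 12.9 and 4.73 CPM in controls 6 and 7, and at 101, 101 and 105 CPM in the treated tumors. Pck2, the mitochondrial carboxykinase, also overlapped, with 48.6, 16.7 and 7.43 CPM in control tumors and 38.2, 36.0 and 44.1 CPM in treated tumors. G6pc3, the glucose-6-phosphatase of most tissues, varied little, between 3.92 and 8.70 RPKM in all 6 libraries, where its liver form ran from 0.127 to 176 RPKM. Fbp2, the bisphosphatase of muscle, had 0 to 2 counts per library and was not tested.

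As ratios within a library, liver form over counterpart, all 10 pairs overlapped between groups (exact permutation p of 0.3 or 0.4, and 0.4 after Benjamini-Hochberg adjustment over the pairs). The log2 ratio of Pklr to Pkm was -10.9 in control 5, -1.65 and 1.41 in controls 6 and 7, and -9.16, -11.2 and -10.1 in treated tumors 1, 2 and 5. Control 7 was thus the only tumor in which reads of Pklr outnumbered those of Pkm. For Gys2 over Gys1 the log2 ratio was -4.44, 4.42 and 5.58 in the control tumors and -3.31, -4.68 and -3.94 in the treated tumors. Pygl kept the lead over Pygb in every tumor, with log2 ratios of 0.57, 3.53 and 5.01 in the control tumors and 0.91, 0.72 and 0.81 in the treated tumors. Pygl also exceeded Pygm, the muscle phosphorylase, in every library, and Pygm stayed at or below 0.936 RPKM.

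**Figure D5:**
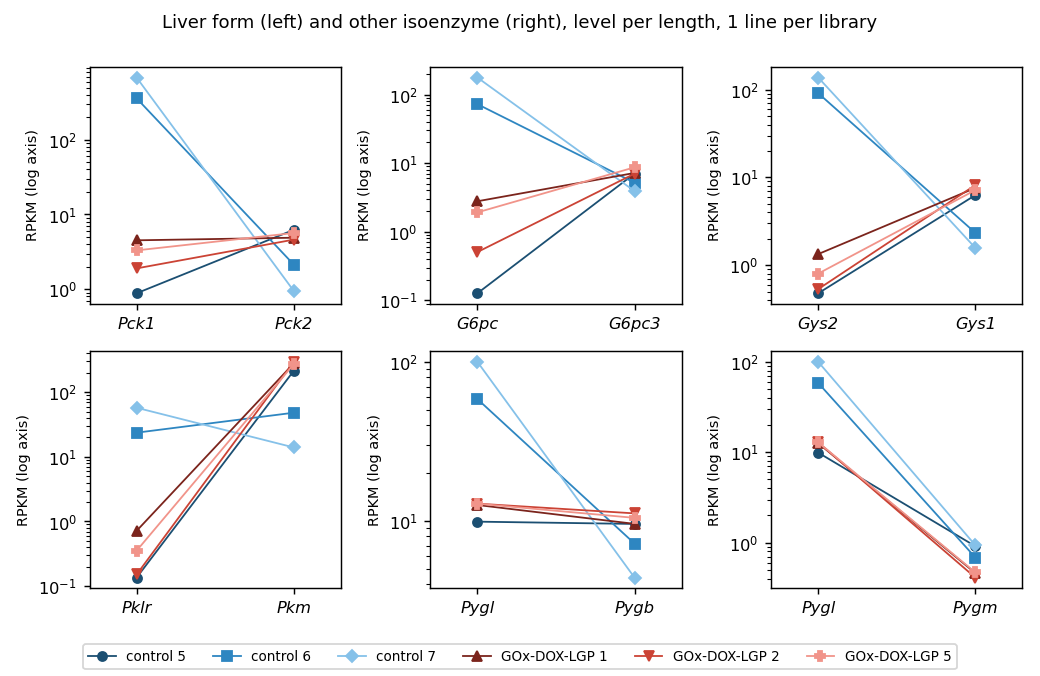
Level per length, in RPKM on a log axis, of each liver form (left) and its counterpart (right) in 6 pairs, with 1 line per library. The lines of controls 6 and 7 start high and those of control 5 and the treated tumors start low, and among the liver forms drawn Pygl alone lies at or above its counterparts in all 6 libraries.

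Other genes of gluconeogenesis differed less as a group, in a list that shares Pck2, Fbp2 and G6pc3 with the counterparts above. Of the shared genes, Pck2 and G6pc3 had log2 fold changes of 0.70 and 0.50, and Fbp2 was not tested. Of 12 listed, 10 were tested, none was called by edgeR, and the median log2 fold change was -0.83. At an unadjusted 0.05, 4 were lower, where 14.6% of all genes kept were. Pcx, the pyruvate carboxylase that feeds the pathway, was the most different, with 3.47, 325 and 426 CPM in control tumors 5, 6 and 7 and 8.06, 5.39 and 6.97 CPM in treated tumors 1, 2 and 5 (log2 fold change -5.21, SE 1.53, edgeR adjusted p = 0.247). Slc37a4, the carrier that brings glucose-6-phosphate to G6pc, followed at -2.89, and Mdh1, the cytosolic malate dehydrogenase, at -1.76. DESeq2 called 3 of the list, all lower, where it called 9.85% of all genes with an adjusted p lower.

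Among 16 other glycogen genes, which include the counterparts Gys1, Pygb and Pygm, 15 were tested and none was called by edgeR. At an unadjusted 0.05, 7 were lower and 1 was higher, where 14.6% of all genes kept were lower and 442 of 15374 were higher. The median log2 fold change was -0.45, which turned to 0.12 with library totals in place of TMM. Ppp1r3c, a subunit that targets protein phosphatase to glycogen, had a log2 fold change of -4.87 (SE 1.67), Gbe1, the branching enzyme, of -2.07 (SE 0.73), and Ppp1r3b, the liver targeting subunit, of -1.84 (SE 0.66). Gbe1 and Ppp1r3b thus lay near Pygl rather than near Gys2. Gbe1 was at 23.0 CPM in control 5 and at 21.7 to 32.3 CPM in treated tumors, compared with 114 and 198 CPM in controls 6 and 7. DESeq2 called 2 of the 16 genes, both lower, where it called 9.85% of all genes with an adjusted p lower.

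Of the pathway lists, the 11 other genes of hepatic sugar handling had the median difference nearest to that of the 8 genes. All 11 were tested, none was called by edgeR, and the median log2 fold change was -2.95. At an unadjusted 0.05, 9 were lower, where 14.6% of all genes kept were. DESeq2 called 9 lower, where it called 9.85% of all genes with an adjusted p lower. Slc2a2, the glucose transporter of the hepatocyte membrane, had 3.73, 351 and 797 CPM in control tumors 5, 6 and 7 and 12.9, 7.15 and 8.12 CPM in treated tumors 1, 2 and 5 (log2 fold change -5.35, SE 1.65, edgeR adjusted p = 0.247).

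Of 22 listed regulators of these enzymes, 20 were tested, none was called by edgeR, and the median log2 fold change was -1.97. At an unadjusted 0.05, 11 were lower and 1 was higher, where 14.6% of all genes kept were lower and 442 of 15374 were higher. DESeq2 called 12 of the 22, all lower, where it called 9.85% of all genes with an adjusted p lower. Mlxipl, which encodes the carbohydrate response factor ChREBP that acts on Pklr, had 1.23, 430 and 551 CPM in control tumors 5, 6 and 7 and 4.20, 1.47 and 4.27 CPM in treated tumors 1, 2 and 5 (log2 fold change -6.62, SE 1.95, edgeR adjusted p = 0.247). Klf15, a factor of the fasting response, had a log2 fold change of -5.92 (SE 1.83), and Gcgr, the glucagon receptor, of -5.67 (SE 1.83). Without control 5, edgeR called 15 of the 22 regulators lower and 1 higher, in a fit that called 25.5% of all genes lower and 22.2% higher.

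The genes whose log2 CPM followed the mean of the 8 most closely over the 6 libraries were Acox2, Pemt, Cdhr5, Enho and Slco1a1, with Pearson r of 0.9997 to 0.9999. Since controls 6 and 7 stand far from the other 4 libraries, r is high for many genes, and 3099 of the 15366 other genes kept had an r over 0.9.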

How the data were processed

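RNA of 6 HCA-1 tumors was sequenced from libraries of the KAPA mRNA HyperPrep kit. For each gene and library, the authors deposited a raw count, and no label mentions pooling. The study's methods name TopHat and HTSeq, whereas the submitters' processing notes name Trimmomatic 0.38, HISAT2 2.1.0 and featureCounts 2.0.0. The genome build and the strand setting are not given in the sources used here. The deposited signal values are the authors' counts divided by 1 size factor per library (0.532 to 1.32), and were used for gene symbols and as a check.

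The 8 genes and all lists were chosen with earlier results of these data known. Counts were analysed in R 4.3.3 with edgeR 4.0.16 (filterByExpr, TMM, quasi-likelihood test, all 6 libraries, no covariate, Benjamini-Hochberg adjustment, threshold 0.05), and with DESeq2 1.42.0 as an alternative. Other alternatives were DESeq2 size factors or library totals in edgeR, 2 other filters on low counts, the hepatocyte list as a covariate, and leaving out each library. Log2 CPM used a prior count of 2 (0.5 as an alternative). Totals of 15529940 to 18401178 counts set the depth. Permutation tests were exact and two-sided. RPKM divided CPM by the exon length of GENCODE M21 (GRCm38), which may not be the authors' annotation, and 55450 of 55536 gene identifiers were found in it. Matplotlib 3.10.9 drew the figures. Code was tested on simulated counts.

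Genes were named by a rule: the 8 genes, their counterparts, Alb, the 3 genes with the largest log2 fold change in each pathway list without called genes, and the 5 genes with the highest r. Some genes that this rule names are not reported here.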

Additional observations from a re-analysis of the deposited data

How the results depend on the processing

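No gene was called among all genes, the 8 genes or the pathway lists by edgeR with all 6 libraries. DESeq2 called 1739 genes, 7 of the 8 and 27 pathway genes. Leaving out 1 library gave 0 to 7745, 0 to 8 and 0 to 53, and each upper end came without control 5. The median log2 fold change of the 8 genes, -6.04, moved to -0.33 with the hepatocyte covariate and turned to 1.74 without controls 6 and 7, an alternative chosen after seeing the data. There Pck1 turned to 1.89, G6pc to 3.76, Fbp1 to 2.005, Gckr to 2.41, Gys2 to 0.91, Pklr to 1.59, Khk to 0.96 and Pygl to 0.38, and with the covariate G6pc turned to 1.41 and Gckr to 0.0549. The other scalings and filters changed no sign or call of the 8 genes, though library totals moved the median of all genes from 0.02 to 0.51. The number of the 8 genes with groups apart was 0 with all libraries, 0 to 8 with 1 library left out (8 without control 5) and 8 without controls 6 and 7, where 71.9% and 54.4% of all genes kept were apart. Relative to the hepatocyte list it was 1, then 2 with a prior count of 0.5, 1 to 6 with 1 library left out (6 without control 5) and 6 without controls 6 and 7, against 98.6% and 94.4% of all genes. Of the 10 isoenzyme pairs, 0 were apart, 0 to 10 with 1 library left out (10 without control 5) and 8 without controls 6 and 7, and no share over all genes was computed for such pairs. The cause of these changes was not tested. No paired analysis was possible because the labels name no pairs of control and treated tumors. The replicate number 5, which occurs in both groups, was not taken as a pair. Depth limits G6pc, Gckr and Pklr in control 5, with 7, 9 and 10 counts.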

Other observations

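Zone markers of the liver lobule followed the same libraries as the 8 genes. The mean of 8 periportal genes, from the zone where gluconeogenesis is most active, was 2.07 log2 CPM in control 5, 8.84 and 9.62 in control tumors 6 and 7, and 3.63, 2.92 and 3.24 in treated tumors 1, 2 and 5. For 8 pericentral genes it was 1.37, 6.49, 7.06, 2.38, 2.33 and 1.83 in the same order. EdgeR called none of either list, and at an unadjusted 0.05 it had 7 of 8 and 5 of 6 tested genes lower, where 14.6% of all genes kept were.

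Markers of T cells separated the groups in these libraries, and endothelial markers did so for the most part. All 8 T cell genes were higher in each GOx-DOX-LGP tumor than in any control, with sums of 31.0 to 90.0 CPM in control tumors and 128 to 197 CPM in treated tumors. Of 6 endothelial genes, 5 were lower in each treated tumor than in any control. The 6 summed to 109, 330 and 376 CPM in controls 5, 6 and 7 and to 80.0 to 96.1 CPM in treated tumors. Control 5 thus lay near the treated tumors and far from controls 6 and 7. EdgeR called none of the T cell or endothelial genes, and DESeq2 called 5 and 4, where it called 10.5% of all genes with an adjusted p. Of all genes kept, 17.2% had groups that did not overlap. Cholangiocyte markers summed to 7025, 556 and 206 CPM in controls 5, 6 and 7 and to 4744 to 7130 CPM in treated tumors. Most of this sum was Spp1, with means of 2493 CPM in control tumors and 5714 CPM in treated tumors. The next highest of the list, Sox9, had means of 58.3 and 119.5 CPM. The 6 fibroblast and stellate genes summed to 1406 to 5709 CPM in control tumors and 2186 to 6873 CPM in treated tumors. No gene of these 2 lists was called by edgeR or DESeq2, and none had an unadjusted edgeR p under 0.05.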
